A study of Homo sapiens with 15 samples.

Results

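The 43 genes described here encode translation initiation factors, the proteins that bring the small ribosomal subunit, the initiator tRNA and the messenger RNA together at a start codon. They are the genes whose symbol starts with EIF1, EIF2, EIF3, EIF4, EIF5 or EIF6, without the EIF2AK kinases, the EIF2C (Argonaute) genes, the EIF4EBP genes and pseudogenes. They are 43 of the 18377 genes that the arrays measured under 1 symbol, and they rest on 48 features of the array. By factor they are 5 genes of the eIF1 family, 6 of eIF2 and related carriers of initiator tRNA, 5 of eIF2B, 12 of eIF3, 11 of eIF4, and 4 of eIF5, eIF5A, eIF5B and eIF6. EIF3C, EIF4A1 and EIF5A share their features with other genes and are given apart, and EIF4G3 was not used here.

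The levels come from total RNA of 2 human prostate cancer lines, PC3 (from a bone metastasis) and DU145 (from a brain metastasis), on 15 arrays of the Human Gene 1.0 ST type (Affymetrix GeneChip). Cells of each line received a miR-224 mimic, a miR-452 mimic or a scrambled mimic, each at 20 nM with a Lipofectamine reagent in a reverse transfection, or were left untransfected, and RNA was taken after 48 h. Each group has 2 arrays, except 1 for DU145 with the scrambled mimic, since the authors left out an array that performed badly. The labels do not say whether the arrays of a group came from separate cultures, so every p below measures the spread between arrays, which may be technical. Neither the strand of each mimic nor the sequence of the scrambled mimic is given in the sources used here. The study's title concerns the locus that holds the GABRE, miR-452 and miR-224 genes in prostate cancer, and the arrays ask which messages change when either microRNA is added to cells.

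Initiation starts when eIF2 bound to GTP carries the initiator tRNA to the small subunit, where eIF1, eIF1A, eIF3 and eIF5 also bind. The eIF4 factors recognise the cap of the messenger RNA, unwind its leader and join it to eIF3, and the complex then scans for a start codon. At the start codon eIF2 gives up its GTP, eIF5B joins the large subunit, and eIF2B recharges eIF2 with GTP for another round. Stress kinases stop this cycle by phosphorylating eIF2, which then holds eIF2B inactive.

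The mature strands of both microRNAs, as RefSeq lists them on GRCh38.p14, are shown because each mimic is named for one of these microRNAs; which strand was added is not stated. Both genes lie on the minus strand of chromosome X, within the GABRE gene. Capitals mark the seed, bases 2 to 8, with which a microRNA pairs with its targets.
hsa-miR-224-5p: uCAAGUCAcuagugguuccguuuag
hsa-miR-224-3p: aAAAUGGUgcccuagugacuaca
hsa-miR-452-5p: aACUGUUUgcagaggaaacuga
hsa-miR-452-3p: cUCAUCUGcaaagaaguaagug
The strands lie at chrX:151958628-151958652, chrX:151958584-151958606, chrX:151959678-151959699 and chrX:151959634-151959655 in the order shown. The 4 seeds differ from each other, so the mimics share no seed. Transcript sequences were not used here, and no search for seed matches in the members was made.

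The values are log2 levels from 4.49 to 14.18 that were normalized separately in each line, so a level is compared only within a line and only for the same gene. Array medians over all features were 6.94 to 7.05 on PC3 arrays and 6.51 to 6.67 on DU145 arrays, and arrays of the same group correlated at 0.992 or above in both lines. The epithelial keratin KRT8 ranged from 11.22 to 11.56 over PC3 arrays and from 11.68 to 12.17 over DU145 arrays. The keratins KRT18 and KRT19 lay between 10.01 and 11.36 over both lines. Epithelial EPCAM ranged from 6.85 to 9.01 in PC3 and from 7.27 to 9.07 in DU145. Epithelial CDH1 ranged from 6.73 to 7.30 in PC3 and from 8.38 to 8.93 in DU145. Of the markers of other cell types the stromal COL1A1 was the highest, at 8.25 to 8.63 in PC3 and up to 7.60 in DU145. Stromal COL1A2 reached 7.15, leukocyte CD14 6.66 and endothelial CDH5 6.43, while stromal LUM, leukocyte PTPRC and endothelial PECAM1 stayed at or below 6.14. The part of other cell types in the results was not tested. KLK3, the androgen-regulated gene of prostate-specific antigen, ranged from 6.32 to 6.62 on PC3 arrays and from 5.59 to 6.17 on DU145 arrays. The spread of levels over all genes moved with transfection: its SD was 1.57 to 1.64 on the 6 transfected PC3 arrays and 1.65 to 1.69 on the 2 untransfected ones, and 1.38 to 1.47 on the 5 transfected DU145 arrays and 1.55 on both untransfected ones. Its part in the results against untransfected cells was not tested.

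Set against untransfected cells, initiation factor genes that changed were almost all lower. In PC3, 8 members were lower with miR-224 (18.6% of the 43, beside 6.85% of all genes), 8 with miR-452 (18.6%, beside 14.1%) and 10 with the scrambled mimic (23.3%, beside 10.9%). In DU145, 9 members were lower with miR-224 (20.9%, beside 15.5%), 8 with miR-452 (18.6%, beside 19.9%) and 5 with the scrambled mimic (11.6%, beside 9.22%). A gene counts here when its adjusted p is under 0.05 (limma, Benjamini-Hochberg over all 18377 genes). The members' shares were thus above that of all genes in PC3 with miR-224 or the scrambled mimic, and near it in DU145 with miR-452. Only EIF2S1 in DU145 with miR-452 was higher, 1 of 43 beside 8.31% of all genes. In the other 5 comparisons with untransfected cells limma called 0 members higher, beside 2.84% of all genes for miR-224, 8.12% for miR-452 and 3.32% for the scrambled mimic in PC3, and 5.44% for miR-224 and 2.6% for the scrambled mimic in DU145. At an unadjusted p under 0.05 those 5 counts were 2, 1, 1, 1 and 3 members in the same order. The members sat high among all genes by mean level, at a median percentile of 91.4 in PC3 and 90.7 in DU145. Of the 43, 40 in PC3 and 39 in DU145 lay above the median of all genes. The spread of levels was narrower on transfected arrays, and the part of level in the shares above was not tested.

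The shift was small for most members. The median log2 change from untransfected cells was -0.04 with miR-224, -0.14 with miR-452 and -0.16 with the scrambled mimic in PC3, where all genes had medians of 0.03, 0.01 and 0.00. In DU145 it was -0.18, -0.12 and -0.17, where all genes had 0.02, -0.02 and 0.03. With quantile normalization within the line the members' medians were 0.0047, -0.06 and -0.09 in PC3 and -0.08, 0.0062 and -0.10 in DU145 in the same order, so that 2 of the 6 turned sign and the others were smaller. With the scrambled mimic 38 of 43 members in PC3 and 35 of 43 in DU145 lay below 0. The 3 comparisons of a line share their untransfected arrays, so they are not separate evidence. The counts also lean on few arrays. Without untransfected array b, PC3 had 2 members called in either direction with miR-224, 1 with miR-452 and 1 with the scrambled mimic, where 3.68%, 4.39% and 0.446% of all genes were called in place of 9.69%, 22.2% and 14.2%. Without miR-224 array b it had 0 with miR-224 (3.36% of all genes). The miR-224 count was 5 without untransfected array c and 2 without miR-224 array a, the miR-452 count 5 without miR-452 array b, and the scrambled count 4 without scrambled array c. In DU145, leaving out untransfected array b or c left 1 or 2 members called with miR-224, 1 with miR-452 and 0 with the scrambled mimic, while leaving out miR-452 array c gave 18, 18 and 13, where the calls over all genes went up to 39%, 52.5% and 30.7%. The counts of members thus moved with those of all genes. The miR-224 count was 3 or 4 without miR-224 array a or c. Without miR-452 array a the counts were 18 with miR-224, 2 with miR-452 and 13 with the scrambled mimic.

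Set against the scrambled mimic, PC3 had more calls with miR-224 than with miR-452, among members and among all genes. PC3 cells with miR-224 had 9 members higher and 3 lower, 20.9% and 6.98% of the 43, beside 12.1% and 4.65% of all genes. PC3 cells with miR-452 had 2 higher and 1 lower (4.65% and 2.33%, beside 2.89% and 2.33%). In DU145 miR-224 gave 1 member higher (2.33%, beside 0.631%) and, by limma, 0 lower (beside 1.31%, with 4 at an unadjusted p under 0.05), and miR-452 gave 2 higher and 1 lower (4.65% and 2.33%, beside 0.577% and 1.52%). Between the microRNAs, miR-224 over miR-452, 6 members were higher and 1 lower in PC3 (14% and 2.33%, beside 12.5% and 5.99%), and 1 was higher and 2 lower in DU145 (2.33% and 4.65%, beside 3.53% and 2.38%). The 12 calls of miR-224 over the scrambled mimic in PC3 were 4 without scrambled array c and 3 without miR-224 array b, and the 7 between the microRNAs were 2 without miR-224 array b and 3 without miR-452 array c. In DU145 the miR-224 call over the scrambled mimic was lost without either miR-224 array or either untransfected array, while 5 members passed without either miR-452 array. The 3 calls of miR-452 over the scrambled mimic became 5 without miR-452 array a, and the 3 between the microRNAs became 1 without miR-224 array a, 0 without miR-224 array c and 5 without miR-452 array a.

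**Figure D1:**
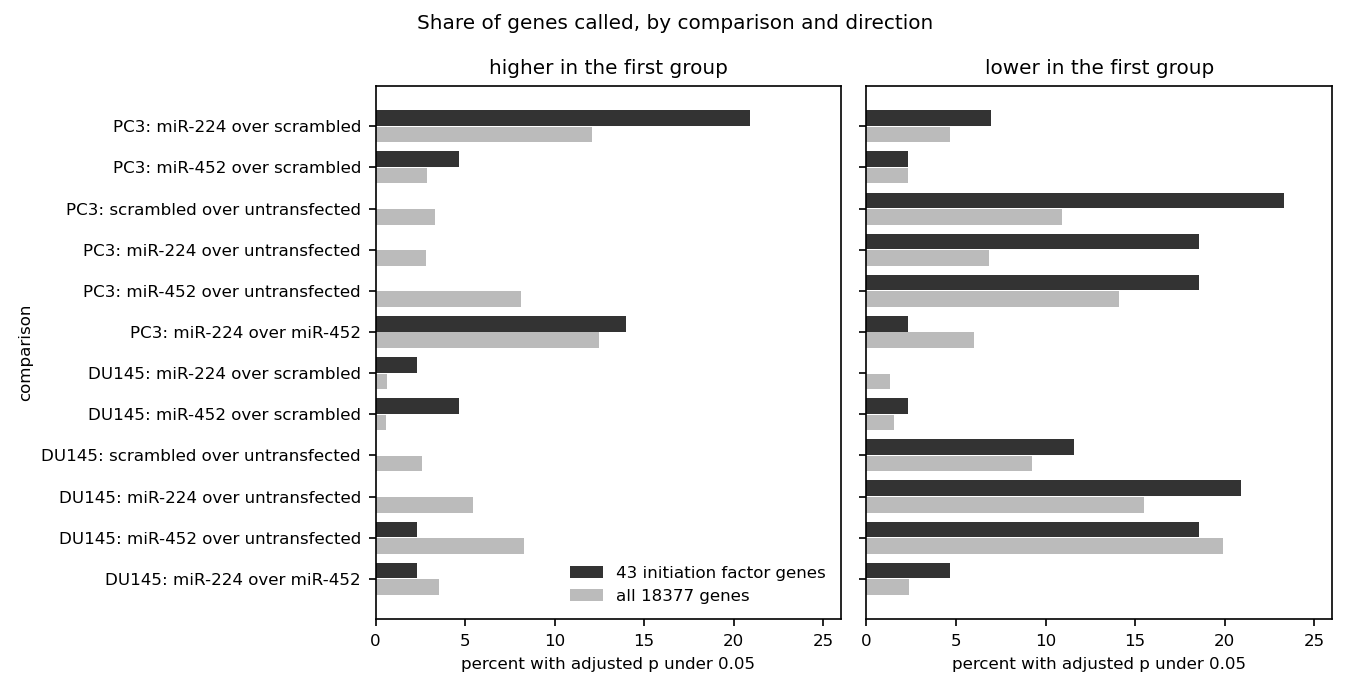
Percent of the 43 initiation factor genes (dark bars) and of all 18377 genes (light bars) that were higher (left) or lower (right) in the first group named, at an adjusted p under 0.05. Dark bars are longest for lower calls against untransfected cells, up to 23.3%, and for higher calls with miR-224 over the scrambled mimic in PC3, 20.9%.

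Over the 12 comparisons within lines there were 78 calls among 516 pairs of member and comparison, 15.1% beside 13.1% over all genes. They fell on 25 members, 58.1% beside 55.7% of all genes called at least once, so both shares were near those of all genes. Called at least once were 6 of 6 genes of the eIF2 group, 4 of 5 of eIF2B, 3 of 4 of eIF5 and eIF6, 3 of 5 of the eIF1 family, 5 of 12 of eIF3 and 4 of 11 of eIF4. Of the 78 calls, 12 held whichever array could be left out, and they belong to 4 genes: EIF2S3, EIF2A, EIF2B1 and EIF3E. The other 66 were each lost without some array. Among the 12 are EIF2S3 and EIF2B1 with miR-452 over the scrambled mimic in DU145. These rest on the lone scrambled array, which could not be left out.

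**Figure D2:**
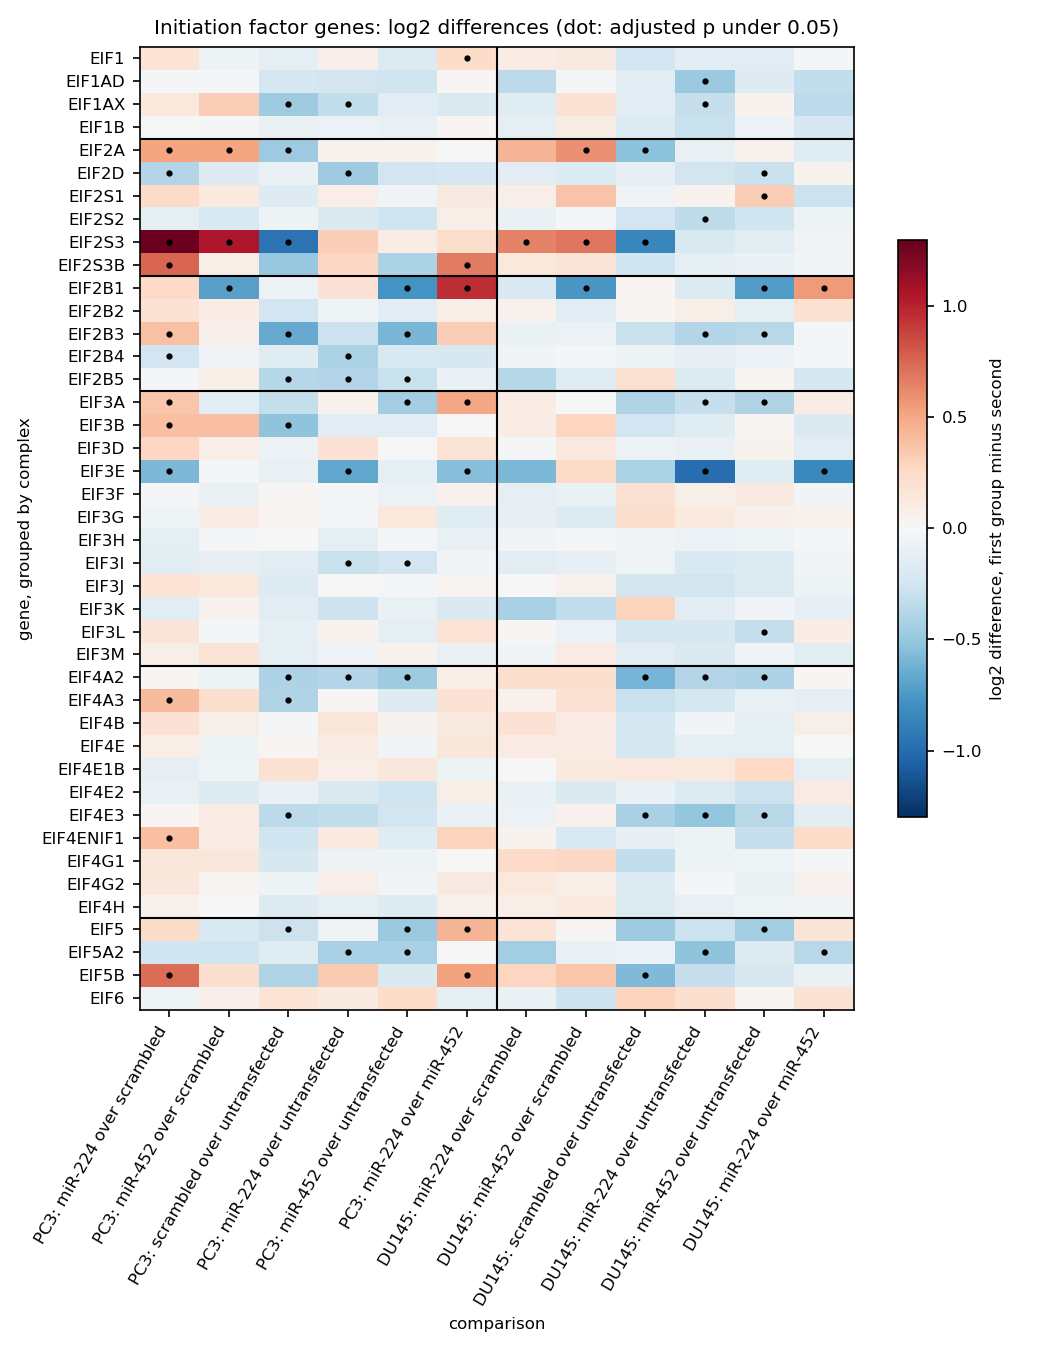
Log2 differences of 42 initiation factor genes (rows, grouped by factor with black lines between groups) in the 12 comparisons within lines (columns, PC3 left, DU145 right). Red is higher and blue lower in the first group named, and a black dot marks an adjusted p under 0.05. EIF2S3 and EIF2A stand out in the comparisons with the scrambled mimic, EIF2B1 with miR-452, and EIF3E with miR-224. EIF1AY is left out of the drawing.

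EIF2S3 encodes the gamma subunit of eIF2, which binds GTP and the initiator tRNA. It had the largest change of any member, with miR-224 over the scrambled mimic in PC3. In PC3 its log2 level was 11.02 and 11.22 with miR-224, 11.00 and 10.79 with miR-452, 9.85 and 9.85 with the scrambled mimic, and 10.84 and 10.76 in untransfected cells. In DU145 it was 9.94 and 10.03 with miR-224, 9.99 and 10.07 with miR-452, 9.34 with the scrambled mimic, and 10.14 and 10.22 in untransfected cells. In both lines the scrambled arrays lay apart from all others, below both microRNA groups and below untransfected cells. The change from the scrambled mimic in PC3 was 1.28 ± 0.0951 with miR-224 (log2, SE; 2.42-fold, adjusted p = 3.35e-05 by limma) and 1.05 ± 0.0951 with miR-452 (2.07-fold, adjusted p = 9.62e-05). In DU145 it was 0.65 ± 0.107 with miR-224 (1.57-fold, adjusted p = 0.0196) and 0.70 ± 0.107 with miR-452 (1.62-fold, adjusted p = 0.017). The scrambled mimic itself lay below untransfected cells by a log2 change of -0.96 in PC3 (adjusted p = 0.000679 by limma) and -0.85 in DU145 (adjusted p = 0.0115). The microRNA groups differed little from untransfected cells, by 0.32 with miR-224 in PC3 (adjusted p = 0.0583 by limma) and by -0.20 in DU145 (adjusted p = 0.123). The DU145 values rest on 1 scrambled array, and there the miR-224 call was lost without either miR-224 array (adjusted p = 0.0767 and 0.113) or either untransfected array (adjusted p = 0.0529), and the scrambled call without either untransfected array (adjusted p = 0.0676 and 0.0725).

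EIF2A, an initiation factor outside the eIF2 complex that can deliver initiator tRNA without GTP, was also lowest on the scrambled arrays of both lines. Its level in PC3 was 10.06 and 10.00 with miR-224, 10.01 and 10.06 with miR-452, 9.51 and 9.52 with the scrambled mimic, and 10.02 and 9.96 in untransfected cells. In DU145 it was 9.44 and 9.33 with miR-224, 9.48 and 9.61 with miR-452, 8.95 with the scrambled mimic, and 9.44 and 9.53 in untransfected cells. The microRNA groups overlapped untransfected cells in both lines. EIF2S1, EIF3B, EIF4A3 and EIF5B were also lowest on the scrambled arrays of both lines, by smaller margins. In PC3 EIF2A was higher than with the scrambled mimic by 0.51 ± 0.0754 with miR-224 (adjusted p = 0.00104 by limma) and by 0.51 with miR-452 (adjusted p = 0.00212). In DU145 miR-452 gave 0.60 ± 0.114 (adjusted p = 0.0322 by limma), and miR-224 gave 0.44, which did not pass (adjusted p = 0.103). The scrambled mimic over untransfected cells gave -0.47 in PC3 (adjusted p = 0.0046 by limma) and -0.54 in DU145 (adjusted p = 0.0253). The PC3 scrambled call was lost without untransfected array b (adjusted p = 0.0742), and both DU145 calls without either untransfected array (adjusted p up to 0.146) and that of miR-452 without either miR-224 array (adjusted p = 0.052).

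The promoters of EIF2S3 and EIF2A are shown because these genes moved together, though other members were also lowest on the scrambled arrays of both lines. Each sequence is the 250 bases before the start that RefSeq gives on GRCh38.p14, on the plus strand, at chrX:24054706-24054955 and chr3:150546537-150546786. Capitals mark CCGGAAG, a core of ETS factor sites.
EIF2S3: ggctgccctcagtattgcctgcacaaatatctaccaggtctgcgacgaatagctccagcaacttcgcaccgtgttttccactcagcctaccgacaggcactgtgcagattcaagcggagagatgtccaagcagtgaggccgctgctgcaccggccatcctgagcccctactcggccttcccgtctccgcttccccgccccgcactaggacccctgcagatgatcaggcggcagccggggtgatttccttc
EIF2A: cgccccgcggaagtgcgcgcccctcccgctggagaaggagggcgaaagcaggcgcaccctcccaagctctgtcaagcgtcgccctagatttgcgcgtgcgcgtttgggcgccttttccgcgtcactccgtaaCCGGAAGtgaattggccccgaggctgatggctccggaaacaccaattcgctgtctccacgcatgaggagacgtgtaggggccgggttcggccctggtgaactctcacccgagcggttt
A promoter was on hand for 37 of the 43 members, taken as 300 bases from 250 before to 50 after the start, and 3 motifs were searched on both strands. CACGTG, the E-box, was in 10 of the 37 (27%) and in 8.77% of 27305 genes. CCGGAAG was in 10 of the 37 (27%) and in 12.2% of genes, and TCTCGCG in 5 (13.5%) and in 4.17%. The window of EIF2A held 1 CCGGAAG and that of EIF2S3 none of the 3. The comparison is a description, since the 27305 genes include noncoding ones, and a match is not a binding site.

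**Figure D3:**
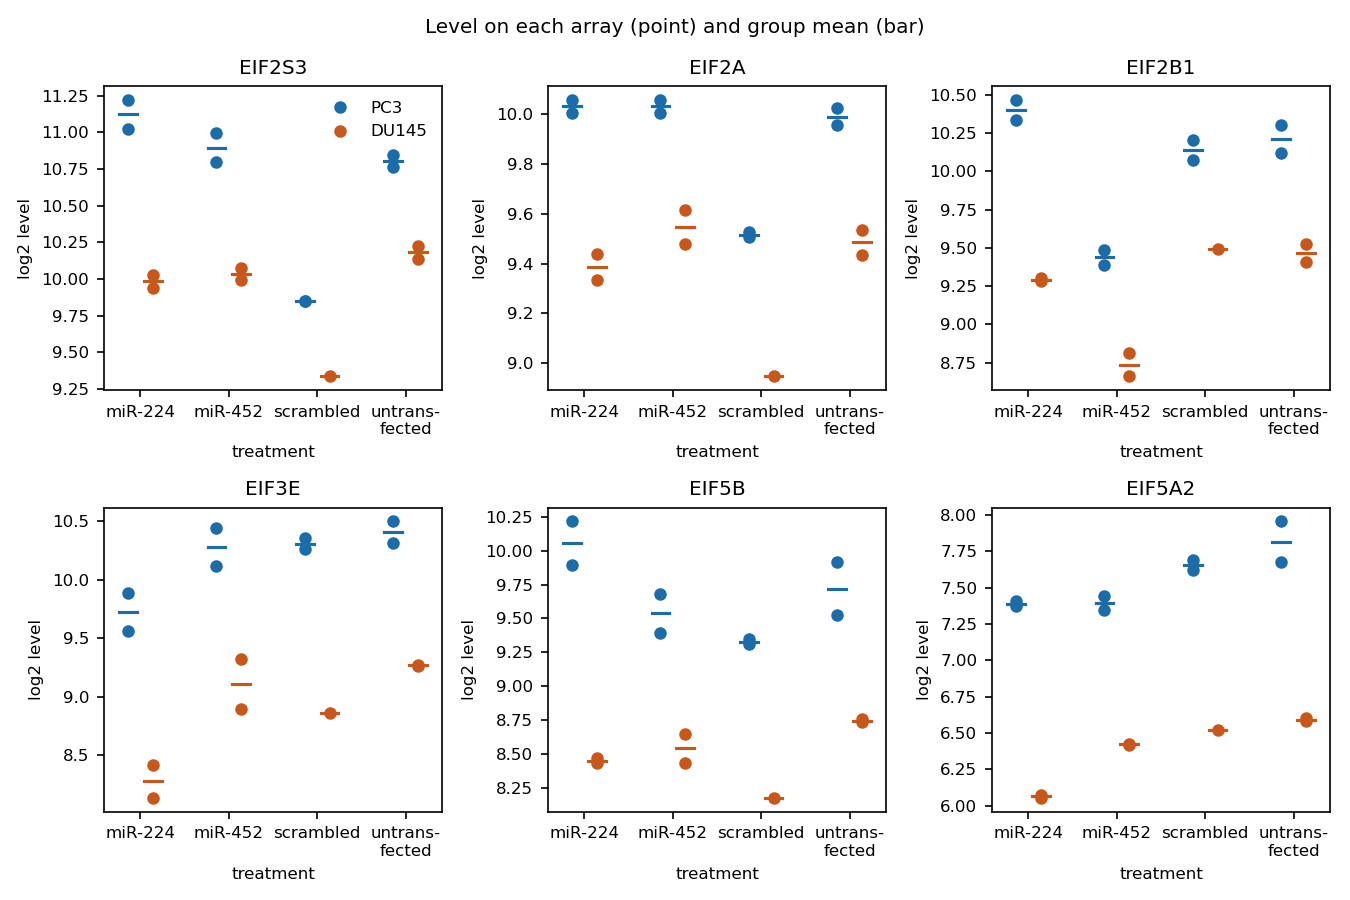
Log2 level of 6 initiation factor genes on each array (points) with group means (bars), for PC3 (blue) and DU145 (orange), by treatment. EIF2S3, EIF2A and EIF5B are lowest on the scrambled arrays of both lines, EIF2B1 on the miR-452 arrays and EIF3E on the miR-224 arrays. Vertical axes are log2 and do not start at 0.

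The other genes of the eIF2 group moved less. EIF2S3B is a copy of EIF2S3 so similar in sequence that probes for one may read the other. Its level in PC3 was 6.27 and 6.22 with miR-224, 5.55 and 5.58 with miR-452, 5.61 and 5.37 with the scrambled mimic, and 6.30 and 5.66 in untransfected cells. Here miR-224 exceeded the scrambled mimic by 0.76 (adjusted p = 0.00799 by limma) and miR-452 by 0.68 (adjusted p = 0.0127). Unlike EIF2S3, it gave only 0.08 with miR-452 over the scrambled mimic, and on the 7 DU145 arrays it lay between 4.88 and 5.23, close to the lowest value of the table. The miR-224 call over the scrambled mimic was lost without scrambled array c, and that over miR-452 without either miR-452 array. EIF2S1, the alpha subunit that stress kinases phosphorylate, was the sole member called higher than in untransfected cells, with miR-452 in DU145 (0.32, adjusted p = 0.0253 by limma, lost without either untransfected array). EIF2S2, the beta subunit, was lower with miR-224 in DU145 (-0.33, adjusted p = 0.0413 by limma). EIF2D, which binds initiator tRNA outside eIF2 and also acts in ribosome recycling, had 9.49 and 9.50 with miR-224 in PC3, against 9.98 and 9.77 with the scrambled mimic and 9.92 and 10.00 in untransfected cells. It was lower with miR-224 than in either control in PC3 (-0.38 from scrambled, -0.46 from untransfected, adjusted p = 0.0305 and 0.019 by limma), and lower with miR-452 than in untransfected cells in DU145 (-0.29, adjusted p = 0.0476). The EIF2S2 and EIF2D calls were each lost without at least 4 of the arrays, among them both untransfected and both miR-224 arrays of the line.

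EIF2B1 encodes the alpha subunit of eIF2B, which senses phosphorylated eIF2, and it fell with miR-452 in both lines against every other group. Its level in PC3 was 9.39 and 9.49 with miR-452, against 10.20 and 10.08 with the scrambled mimic and 10.30 and 10.12 in untransfected cells. In DU145 it was 8.66 and 8.81 with miR-452, against 9.49 with the scrambled mimic and 9.53 and 9.41 in untransfected cells. With miR-224 it was 10.34 and 10.47 in PC3 and 9.30 and 9.28 in DU145, so the miR-452 arrays were lowest in both lines without overlap. Compared with the scrambled mimic, miR-452 gave -0.70 ± 0.0925 in PC3 (0.615-fold, adjusted p = 0.00107 by limma) and -0.76 ± 0.113 in DU145 (0.591-fold, adjusted p = 0.016). Compared with untransfected cells it gave -0.77 in PC3 (adjusted p = 0.000382 by limma) and -0.73 in DU145 (adjusted p = 0.00191). The difference miR-224 over miR-452 was 0.96 in PC3 (1.95-fold, adjusted p = 5.31e-05 by limma) and 0.56 in DU145 (1.47-fold, adjusted p = 0.00858). These calls held whichever array could be left out, except miR-224 over miR-452 in DU145, which was lost without miR-224 array a or c (0.55 and 0.57). The lone DU145 scrambled array could not be left out, so the DU145 call over the scrambled mimic rests on it.

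The other subunits of eIF2B did not follow EIF2B1. EIF2B3, the gamma subunit of the catalytic part, was lower than in untransfected cells with miR-452 (-0.60, adjusted p = 0.00403 by limma) and with the scrambled mimic (-0.66, adjusted p = 0.0053) in PC3, and with miR-224 (-0.38) and miR-452 (-0.36) in DU145 (adjusted p = 0.0397 and 0.0372). In PC3 it had 8.37 and 8.45 with miR-224, 8.17 and 8.02 with miR-452, 8.18 and 7.88 with the scrambled mimic, and 8.78 and 8.60 in untransfected cells, where both arrays lay above all transfected ones. EIF2B5, the catalytic epsilon subunit, was lower than untransfected in PC3 with miR-224 (-0.38), miR-452 (-0.29) and the scrambled mimic (-0.37), with adjusted p between 0.0273 and 0.0459 by limma. EIF2B4, the delta subunit, was lower with miR-224 in PC3, with 8.64 and 8.61 against 8.93 and 8.83 with the scrambled mimic and 9.01 and 9.05 in untransfected cells (-0.25 and -0.41, adjusted p = 0.0417 and 0.00666 by limma). EIF2B2, the beta subunit, passed in no comparison. Each of these calls was lost without at least 1 array, the 2 of EIF2B3 in PC3 against untransfected cells without untransfected array b alone (adjusted p = 0.067 with miR-452 and 0.101 with the scrambled mimic).

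EIF3E, a subunit of eIF3 known from mouse mammary tumours as the integration site INT6, fell further with miR-224 than any other member. Its level in PC3 was 9.89 and 9.56 with miR-224, 10.12 and 10.44 with miR-452, 10.26 and 10.36 with the scrambled mimic, and 10.50 and 10.31 in untransfected cells. In DU145 it was 8.42 and 8.14 with miR-224, 8.89 and 9.33 with miR-452, 8.86 with the scrambled mimic, and 9.27 and 9.27 in untransfected cells. In both lines the miR-224 arrays lay below all others. Compared with untransfected cells miR-224 gave -0.68 ± 0.128 in PC3 (0.625-fold, adjusted p = 0.00717 by limma) and -0.99 ± 0.142 in DU145 (0.502-fold, adjusted p = 0.00283). Compared with miR-452 it gave -0.55 in PC3 (adjusted p = 0.0112 by limma) and -0.83 in DU145 (adjusted p = 0.00992). Compared with the scrambled mimic it gave -0.58 in both lines, which passed in PC3 (adjusted p = 0.00944 by limma) and not in DU145 with its 1 scrambled array (adjusted p = 0.156). The DU145 call against untransfected cells held whichever array was left out. All 3 PC3 calls were lost without miR-224 array b (adjusted p between 0.0708 and 0.121), and 1 each without untransfected array b (0.0935), scrambled array c (0.0596) or miR-452 array c (0.116). The DU145 call against miR-452 was lost without miR-224 array c (adjusted p = 0.0892).

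No other eIF3 gene was called lower with miR-224 in both lines, and 7 of the 12 passed in no comparison: EIF3D, EIF3F, EIF3G, EIF3H, EIF3J, EIF3K and EIF3M. Of these, EIF3K also had its miR-224 arrays below all others in both lines. They lay at 10.12 and 10.11 in PC3, against 10.23 or more elsewhere, and at 10.06 and 10.10 in DU145, against 10.15 or more. EIF3A, the largest scaffold subunit, had 10.08 and 10.32 with miR-224 in PC3, 9.73 and 9.66 with miR-452, 9.92 and 9.76 with the scrambled mimic, and 10.24 and 10.06 in untransfected cells. Its miR-452 arrays were lowest, and it was higher with miR-224 than with miR-452 (0.50, adjusted p = 0.00539 by limma). It was lower with miR-452 than in untransfected cells in PC3 (-0.45, adjusted p = 0.0113 by limma) and in DU145 (-0.39, adjusted p = 0.0163), where miR-224 also passed (-0.30, adjusted p = 0.0468). EIF3B, a scaffold subunit that binds EIF3A, was lower with the scrambled mimic than in untransfected PC3 cells (-0.52, adjusted p = 0.0101 by limma) and on the miR-224 arrays it was above the scrambled ones (0.39, adjusted p = 0.0221). EIF3I, a subunit of the same module, was lower than in untransfected PC3 cells with miR-224 (-0.29, adjusted p = 0.0333 by limma) and with miR-452 (-0.25, adjusted p = 0.0341), and EIF3L with miR-452 in DU145 (-0.30, adjusted p = 0.0266). Each call in this group other than the DU145 call of EIF3E against untransfected cells was lost without at least 1 array, the EIF3A difference between the microRNAs without miR-224 array b (adjusted p = 0.0713).

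Among the eIF4 genes the cap-binding EIF4E, the scaffolds EIF4G1 and EIF4G2, and the helicase partners EIF4B and EIF4H passed in no comparison, nor did the relatives EIF4E1B and EIF4E2. EIF4B is the mean of 3 features, and its brightest one did pass by itself with miR-224 over the scrambled mimic in PC3 (0.35, adjusted p = 0.027 by limma), where the other features gave -0.04 and 0.25. EIF4E ranged from 6.65 to 6.88 over the 8 PC3 arrays and from 5.71 to 6.06 over the 7 DU145 arrays. EIF4G2, an eIF4G relative without the part that binds EIF4E, ranged from 12.16 to 12.35 over PC3 arrays and from 11.44 to 11.63 over DU145 arrays. EIF4E3, a cap-binding relative of EIF4E, lay lower on transfected than on untransfected arrays of both lines, with more calls in DU145. Its level there was 6.67 and 6.83 with miR-224, 6.87 and 6.91 with miR-452, 6.83 with the scrambled mimic, and 7.22 and 7.27 in untransfected cells, with no overlap between transfected and untransfected arrays. The changes were -0.50 with miR-224, -0.36 with miR-452 and -0.42 with the scrambled mimic (adjusted p = 0.0066, 0.0199 and 0.0414 by limma). In PC3 the untransfected arrays, at 7.72 and 7.74, also lay above all transfected ones, at 7.29 to 7.58. There the scrambled mimic alone passed (-0.34, adjusted p = 0.0361 by limma). EIF4A3, a helicase of the exon junction complex that carries the EIF4A name, was lower with the scrambled mimic in PC3 (-0.39, adjusted p = 0.0357 by limma) and higher with miR-224 than with it (0.41, adjusted p = 0.0235). EIF4ENIF1, which carries EIF4E into the nucleus, had 8.16 and 8.39 with miR-224 against 7.91 and 7.87 with the scrambled mimic in PC3 (0.39, adjusted p = 0.015 by limma). Each of these calls was lost without at least 1 array, those of EIF4E3 in DU145 without either untransfected array.

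EIF4A2, a helicase subunit of the cap-binding complex, was the one member called lower in all 6 comparisons with untransfected cells. The changes were -0.39 with miR-224, -0.46 with miR-452 and -0.40 with the scrambled mimic in PC3, and -0.38, -0.40 and -0.61 in DU145, with adjusted p between 0.011 and 0.0391 by limma. This mean joins 2 features that disagree. The feature that lists the RefSeq transcript had group means of 10.42, 10.00, 10.15 and 10.39 in PC3 for miR-224, miR-452, scrambled and untransfected cells. The other, which lists 1 accession, had 7.23, 7.50, 7.48 and 8.03. With miR-224 over untransfected cells in PC3 the first gave 0.03 and the second -0.80 (adjusted p = 0.0507 by limma), so the low mean with miR-224 came from the dimmer feature. In DU145 both features lay below untransfected cells with each mimic, the first by -0.26 to -0.33 and the second by -0.49 to -0.88. The second had group means of 5.12 to 6.01 there, where the lowest value of all was 4.49. Tested alone in a fit of all 28869 features, the first passed in none of the 6 comparisons with untransfected cells (adjusted p between 0.0684 and 0.937 by limma). A separate fit took the brightest feature of each of the 18377 genes and adjusted over those genes. In it, of the 6 calls of the mean, only that with miR-452 in PC3 was kept. Without untransfected array b all 3 PC3 calls were lost (adjusted p between 0.13 and 0.278), as were the 3 in DU145 without either untransfected array (adjusted p between 0.0883 and 0.207). The small nucleolar RNA gene SNORA4 lies within EIF4A2, and a feature listed for both was tested apart and passed nowhere.

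**Figure D4:**
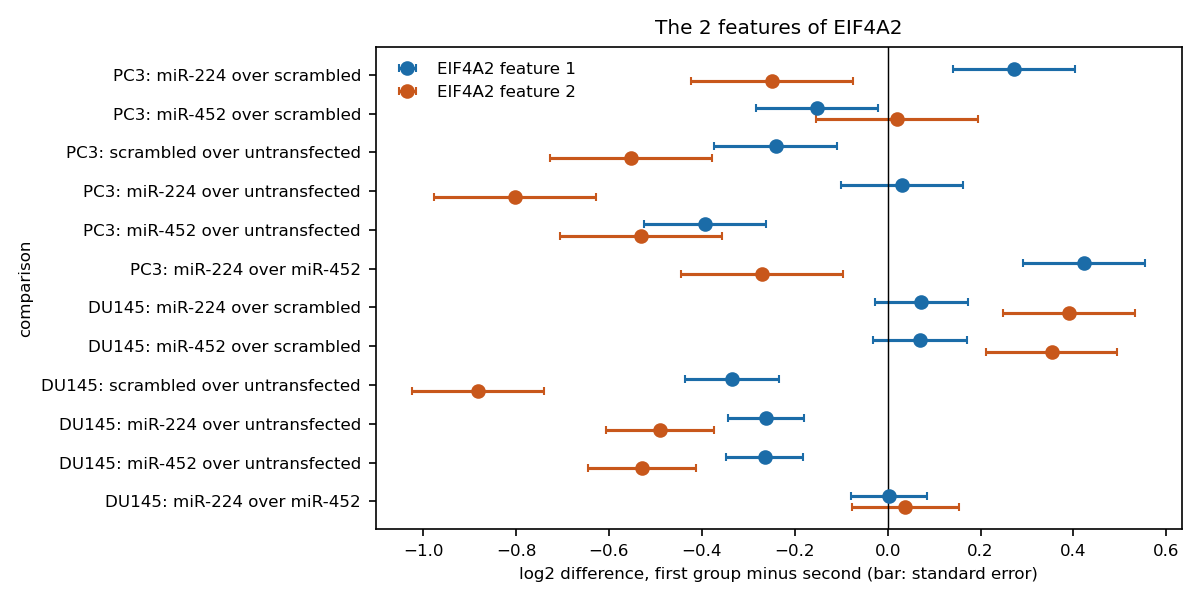
Log2 differences (points) with standard errors (bars) of the 2 features of EIF4A2 in the 12 comparisons within lines. In PC3 the features part with miR-224, at 0.03 and -0.80 over untransfected cells, and in DU145 both lie below 0 in the 3 comparisons with untransfected cells.

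EIF5, which makes eIF2 split its GTP at the start codon, was lower with miR-452 than in untransfected cells in both lines. In PC3 it had 10.56 and 10.65 with miR-224, 10.11 and 10.22 with miR-452, 10.38 and 10.34 with the scrambled mimic, and 10.73 and 10.56 in untransfected cells, and the miR-452 arrays were lowest. In DU145 it had 9.74 and 9.56 with miR-224, 9.33 and 9.64 with miR-452, 9.48 with the scrambled mimic, and 9.89 and 9.98 in untransfected cells, and here the transfected groups overlapped. The miR-452 changes from untransfected cells were -0.48 ± 0.0863 in PC3 (adjusted p = 0.00382 by limma) and -0.45 ± 0.116 in DU145 (adjusted p = 0.0225). The PC3 call was lost without untransfected array b (adjusted p = 0.0564), and the DU145 call without miR-452 array a (0.0975) or either untransfected array (0.0906 and 0.141). In PC3 miR-224 lay above miR-452 by 0.44 (adjusted p = 0.0044 by limma, 0.0526 without miR-224 array b). The scrambled mimic also passed in PC3 (-0.28, adjusted p = 0.0494 by limma), a call lost without any of 7 of the 8 arrays.

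EIF5A2, a relative of the hypusine-bearing factor eIF5A, was lower with miR-224 than in untransfected cells in both lines. In DU145 it had 6.05 and 6.08 with miR-224, 6.42 and 6.43 with miR-452, 6.52 with the scrambled mimic, and 6.60 and 6.58 in untransfected cells. The miR-224 arrays were lowest there, below untransfected cells by -0.53 ± 0.0811 (adjusted p = 0.00366 by limma, 0.0523 without untransfected array b) and below miR-452 by -0.36 (adjusted p = 0.0334, lost without either miR-224 or either untransfected array). In PC3 it had 7.41 and 7.37 with miR-224, 7.44 and 7.35 with miR-452, 7.69 and 7.62 with the scrambled mimic, and 7.96 and 7.68 in untransfected cells. Both microRNAs gave like levels there, -0.43 with miR-224 and -0.42 with miR-452 from untransfected cells (adjusted p = 0.0183 and 0.0115 by limma), calls lost without untransfected array b (0.143 and 0.12). The miR-224 call was also lost without either miR-224 array, and the miR-452 call without miR-452 array c (0.0771).

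EIF5B, the GTPase that joins the ribosomal subunits, was high with miR-224 in PC3. It had 9.89 and 10.22 with miR-224, 9.68 and 9.40 with miR-452, 9.35 and 9.31 with the scrambled mimic, and 9.91 and 9.53 in untransfected cells, so the miR-224 arrays lay above the other transfected ones and overlapped untransfected cells. The change was 0.73 ± 0.141 from the scrambled mimic (1.66-fold, adjusted p = 0.00487 by limma) and 0.52 from miR-452 (adjusted p = 0.0243), and neither passed without miR-224 array b (0.0544 and 0.212), nor the second without miR-452 array c (0.193). In DU145 it had 8.47 and 8.43 with miR-224, 8.43 and 8.64 with miR-452, 8.17 with the scrambled mimic, and 8.76 and 8.73 in untransfected cells. The scrambled arrays were lowest in both lines. In DU145 the scrambled mimic was lower than untransfected cells (-0.57, adjusted p = 0.0228 by limma), a call lost without either untransfected array (0.126 and 0.112). EIF6, which keeps the large subunit from joining too early, passed nowhere and ranged from 10.77 to 11.19 over PC3 arrays and from 11.07 to 11.39 over DU145 arrays.

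Of the eIF1 family, eIF1 and eIF1A hold the scanning complex open. Calls in this family fell on EIF1AX, EIF1AD and EIF1. EIF1AX, the X-linked gene of eIF1A, had 10.52 and 10.52 with miR-224 in PC3, 10.66 and 10.76 with miR-452, 10.34 and 10.43 with the scrambled mimic, and 10.93 and 10.76 in untransfected cells. It was lower than in untransfected PC3 cells with miR-224 (-0.32, adjusted p = 0.0383 by limma) and the scrambled mimic (-0.46, adjusted p = 0.00858), and lower with miR-224 in DU145 (-0.30, adjusted p = 0.0498). Its 2 features list the same transcripts, so a near-identical copy may be read by both, and their changes had the same sign in all 12 comparisons. EIF1AD was lower with miR-224 in DU145, with 7.46 and 7.75 against 8.05 and 8.14 in untransfected cells (-0.49, adjusted p = 0.0365 by limma). EIF1, which guards the choice of start codon, was higher with miR-224 than with miR-452 in PC3, with 12.01 and 12.01 against 11.78 and 11.75 (0.24, adjusted p = 0.0461 by limma). EIF1B and EIF1AY passed nowhere. Each call in this family was lost without at least 1 array, that of EIF1AX with the scrambled mimic without untransfected array b alone (adjusted p = 0.12).

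The difference between the lines was tested as the change in PC3 minus the change in DU145, in a fit of all 15 arrays. EIF2S3 was the sole member to pass: with miR-224 over untransfected cells its change was 0.52 ± 0.129 higher in PC3 (adjusted p = 0.0355 by limma), where the separate changes were 0.32 in PC3 and -0.20 in DU145. That is 1 of 43 members (2.33%), beside 4.33% of all genes, and limma called 0 lower, beside 0.794% (1 at an unadjusted p under 0.05). The call was lost without PC3 miR-224 array b (adjusted p = 0.182), PC3 untransfected array c (0.154), either DU145 miR-224 array (0.096 and 0.0816) or either DU145 untransfected array (0.0937 and 0.139). It became 3 members without PC3 untransfected array b and 2 without PC3 miR-224 array a or either DU145 miR-452 array. For miR-224 over the scrambled mimic limma called 0 members higher and 0 lower (beside 0.909% and 0.245%, with 8 and 0 at an unadjusted p under 0.05), and 1 passed without PC3 miR-224 array a or either DU145 miR-452 array. For miR-452 limma called 0 over the scrambled mimic (beside 0.473% higher and 0.147% lower, with 3 and 0 unadjusted) and 0 over untransfected cells (beside 2.2% and 0.68%, with 0 and 2 unadjusted), where 1 passed without PC3 untransfected array c. The changes of EIF2B1 with miR-452 and of EIF3E with miR-224 were thus not shown to differ between the lines.

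Initiation factor genes that share features with others fall outside the 43, and their features were tested with adjustment over all 28869 features. EIF3C and its copy EIF3CL share 2 features that give nearly the same values, and both were higher in PC3 cells given miR-224 than in those given the scrambled mimic, with means of 11.53 and 11.16 (0.37 each, adjusted p = 0.0417 by limma). EIF5A and EIF5AL1 share 3 features, which ranged from 11.77 to 12.13 over PC3 arrays and from 11.89 to 12.15 over DU145 arrays and passed nowhere. EIF4A1, the main helicase of the cap complex, shares a feature with its read-through gene SENP3-EIF4A1, which passed nowhere, and one with the small nucleolar RNA gene SNORA48 inside it, which was lower in PC3 cells given miR-224 than in those given the scrambled mimic (-0.66, adjusted p = 0.0356 by limma). The 2 EIF4A1 features thus gave different calls, and which RNA the second reads was not tested.

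Genes that govern initiation without being factors were taken from 2 lists. Of 20 measured kinases and inhibitors of initiation, 2 were higher and 1 lower than in untransfected PC3 cells with miR-224, 1 and 4 with miR-452, and 0 and 2 with the scrambled mimic (2 higher at an unadjusted p under 0.05 by limma). Of all genes 2.84% and 6.85%, 8.12% and 14.1%, and 3.32% and 10.9% were called there. In DU145 the counts were 2 and 4, 1 and 9, and 1 and 3 in the same order, beside 5.44% and 15.5%, 8.31% and 19.9%, and 2.6% and 9.22% of all genes. Named here are the 4 genes of this list with the smallest p. BZW1, which competes with EIF5 for eIF2, was lower with miR-452 than in untransfected cells (-0.66 in PC3, adjusted p = 0.00082 by limma, and -0.82 in DU145, adjusted p = 0.0019), while the scrambled mimic gave 0.03 and -0.11 over untransfected cells. EIF4EBP2, which holds EIF4E away from EIF4G1, was higher with miR-224 (0.57 in PC3, adjusted p = 0.00124 by limma, and 0.55 in DU145, adjusted p = 0.00383), against 0.10 and 0.04 with the scrambled mimic. EIF2AK4, the kinase GCN2 that phosphorylates EIF2S1, was lower with miR-224 (-0.39 in PC3, adjusted p = 0.00711 by limma, and -0.80 in DU145, adjusted p = 0.000704), against -0.13 and -0.31 with the scrambled mimic. MKNK2, a kinase of EIF4E, was higher with miR-224 in DU145 (0.82, adjusted p = 0.000952 by limma), where the scrambled mimic gave 0.42 over untransfected cells (adjusted p = 0.0437). In PC3 miR-224 gave 0.17 for MKNK2 (adjusted p = 0.248 by limma) and the scrambled mimic 0.17. MKNK2 was higher there with miR-452 (0.51, adjusted p = 0.00222 by limma), as in DU145 (0.42, adjusted p = 0.0128, lost without either untransfected array). For miR-224 over miR-452 the MKNK2 calls were opposite, -0.34 in PC3 (adjusted p = 0.0139 by limma) and 0.40 in DU145 (adjusted p = 0.0358), and each was lost without 3 or more of the arrays. The other calls given here for a microRNA over untransfected cells held whichever array was left out, except that of EIF2AK4 in PC3, which was lost without untransfected array b (adjusted p = 0.0602) or either miR-224 array (0.0511 and 0.0598). Of 13 initiation helpers limma called 0 above untransfected cells in any of the 6 comparisons, with 0 at an unadjusted p under 0.05. Lower were 1 with miR-224, 4 with miR-452 and 4 with the scrambled mimic in PC3, and 4, 6 and 2 in DU145, beside 6.85%, 14.1% and 10.9% of all genes in PC3 and 15.5%, 19.9% and 9.22% in DU145.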

How the data were processed

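Total RNA (100 ng per array) was labelled and hybridised, and the authors turned the signals into log2 levels by RMA16 normalization in GeneSpring GX 11.0, each line on its own, per the series' design text; these deposited levels were used unchanged. The probe set definition and genome build are not given in the sources used here. Features with 1 symbol were brought up to date by Entrez number in the RefSeq table (19279 of 19310 matched) and averaged per symbol, which left 18377 genes with no filter on level. Of 50 symbols with the chosen stems, 6 kinase and binding-protein genes were left out and the noncoding EIF3J-DT was set apart.

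Each line was fitted with 4 group means in limma 3.58.1 (R 4.3.3), with empirical Bayes moderation, two-sided tests and Benjamini-Hochberg adjustment over all genes. Single features, and features shared by several genes, were instead fitted and adjusted over all 28869 features. A joint fit gave the differences between lines as contrasts of changes. Residual degrees of freedom were 4 for PC3, 3 for DU145 and 7 for the joint fit. The lone DU145 scrambled array was taken to vary like the other groups. Precision is limited by the number of arrays, and no 2 arrays held identical values. The fit was tested on simulated data.

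Values per array are given for up to 4 members of each factor, those with the smallest p with a mimic, and up to 4 genes are named of each list of other translation genes (kinases and inhibitors, helpers, elongation and termination factors). Members, lists and tests were chosen with earlier results of these data known. Alternatives were quantile normalization, a filter at percentile 20 of the mean level, trend and robust moderation, a replicate block, the brightest feature per symbol, 1 fit of all arrays and leaving out each array. A block with crossed letters was added after seeing the data.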

Additional observations from a re-analysis of the deposited data

Results flagged for a closer look

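EIF2S3 is the member whose response differed between the lines by a test of the difference itself. With miR-224 over untransfected cells its change was 0.32 in PC3 and -0.20 in DU145 on the log2 scale, a difference of 0.52 ± 0.129 (SE, adjusted p = 0.0355 by limma). It was lost without PC3 miR-224 array b (adjusted p = 0.182), PC3 untransfected array c (0.154) or any of the 4 DU145 arrays of these groups (0.0816 to 0.139).

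Among genes outside the members, 3 named from the lists also had responses to miR-224 over untransfected cells that differed between PC3 and DU145. The differences were -0.65 for MKNK2 (0.17 in PC3 and 0.82 in DU145, adjusted p = 0.00886 by limma), 0.41 for EIF2AK4 (-0.39 and -0.80, adjusted p = 0.0368) and 0.51 for LARP4 (-0.08 and -0.60, adjusted p = 0.0368). That of MKNK2 was lost without PC3 untransfected array c (0.0589), PC3 miR-224 array b (0.057) or DU145 untransfected array c (0.0522). Those of EIF2AK4 and LARP4 were lost without PC3 untransfected array c (0.158 each), PC3 miR-224 array b (0.14 and 0.19) or any of the 4 DU145 arrays of these groups (0.0712 to 0.142), and that of EIF2AK4 also without PC3 miR-224 array a (0.0743).

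Both features shared by EIF3C and EIF3CL, which lie outside the table of 18377 genes because they carry more than 1 symbol, were higher in PC3 cells given miR-224 than in the control with the scrambled mimic, by 0.37 and 0.37 on the log2 scale (adjusted p = 0.0417 each by limma). Their values are nearly the same, so they count as 1 observation. Against untransfected cells neither passed.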

How the results depend on the processing

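Counts below are members called in either direction. Quantile normalization gave 5 in PC3 for miR-452 over the scrambled mimic in place of 3, and in DU145 gave 3 in place of 1 (miR-224 over scrambled), 5 in place of 3 (miR-452 over scrambled), 5 in place of 9 (miR-224 over untransfected) and 5 in place of 3 (miR-224 over miR-452). The level filter gave 5 for PC3 miR-452 over scrambled, and 1 and 2 for the line differences with miR-224 over scrambled and over untransfected, in place of 0 and 1. Trend and robust moderation gave 5 for PC3 miR-452 over scrambled, 4, 5, 11 and 14 in DU145 (miR-224 and miR-452 over scrambled, scrambled and miR-224 over untransfected), and 1 and 2 for the line differences with miR-224, where quantile normalization also gave 2 over untransfected. A fit of all 15 arrays gave 5 for PC3 miR-452 and 4 for DU145 miR-224 over scrambled. The replicate block gave 2 in place of 8 for PC3 miR-224 over untransfected, 0, 0, 1, 1 and 1 in DU145 (miR-224 and miR-452 over scrambled, then scrambled, miR-224 and miR-452 over untransfected), and 0 for the line difference with miR-224 over untransfected. Same-letter deviations correlated at -0.03, -0.15 and 0.27 in PC3 and at -0.31 in DU145. The PC3 miR-224 and DU145 untransfected arrays were not in this check. Pairing of the arrays by letter was thus neither shown nor excluded. With the DU145 miR-452 letters crossed, the block gave 0, 0, 4, 8, 5 and 4 in the order miR-224 and miR-452 over scrambled, scrambled, miR-224 and miR-452 over untransfected, and miR-224 over miR-452.

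Leaving out each array in turn gave in PC3 3 to 12 for miR-224 over scrambled, 3 to 4 for miR-452 over scrambled, 1 to 10, 0 to 9 and 1 to 9 for scrambled, miR-224 and miR-452 over untransfected, and 2 to 8 for miR-224 over miR-452. In DU145 the ranges were 0 to 5, 2 to 5, 0 to 13, 1 to 18, 1 to 18 and 0 to 5 in the same order. For the line differences they were 0 to 1 (miR-224 over scrambled), 0 to 3 (miR-224 over untransfected), 0 to 0 (miR-452 over scrambled) and 0 to 1 (miR-452 over untransfected). No DU145 comparison with the scrambled mimic could be formed without its 1 array.

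Of 79 calls, the one between lines included, 62 were kept under quantile normalization, 73 under trend and robust moderation, 38 under the replicate block and 71 with the brightest feature. The filter kept 77 of 77 and the fit of all arrays 77 of 78. Of the members' median changes from untransfected cells, quantile normalization turned the sign of 2, to 0.0047 in place of -0.04 (PC3, miR-224) and to 0.0062 in place of -0.12 (DU145, miR-452). Among the calls of members 1 turned its sign: EIF4A2 with miR-224 over untransfected cells in PC3 gave 0.0304 with its brighter feature alone, in place of -0.39, since the features disagree. The calls of EIF2S3 and EIF2B1 in PC3, of EIF2A in PC3 with either mimic over scrambled, of EIF2B1 in DU145 with miR-452 over untransfected and of EIF3E in DU145 with miR-224 over untransfected passed under every alternative above, leaving out each array included. For other changes the cause was not tested. Signal over background was not used here.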

Other observations

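EIF3J-DT, a noncoding transcript that starts beside EIF3J and runs the other way, was lower with miR-452 than with the scrambled mimic in PC3 (-0.45, adjusted p = 0.0143 by limma), and lower than in untransfected cells in DU145 with miR-224 (-0.34, adjusted p = 0.0374) and miR-452 (-0.32, adjusted p = 0.0367). The PC3 call was lost without scrambled array b or either miR-452 array (adjusted p from 0.0733 to 0.0846). The DU145 calls were lost without either untransfected array (0.122 to 0.255), the miR-224 call also without either miR-224 array (0.17 and 0.0816) and the miR-452 call without miR-452 array c (0.065). EIF3J itself passed in no comparison.

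Past initiation, 11 of 12 listed elongation and termination factors were measured. Against untransfected PC3 cells 0 were higher and 1 lower with miR-224, 0 and 0 with miR-452, and 0 and 0 with the scrambled mimic by limma, with 1 and 4, 0 and 2, and 0 and 0 at an unadjusted p under 0.05. Of all genes 2.84% and 6.85%, 8.12% and 14.1%, and 3.32% and 10.9% were called. In DU145 1 was higher and 1 lower with miR-224, 0 and 2 with miR-452, and 0 and 1 with the scrambled mimic (1 and 2, 0 and 4, and 2 and 1 unadjusted), beside 5.44% and 15.5%, 8.31% and 19.9%, and 2.6% and 9.22% of all genes. EEF1B2, an exchange factor of eEF1A, was lower in PC3 cells given miR-224 than in those given the scrambled mimic (-0.65, adjusted p = 0.00751 by limma), a call that held whichever array was left out. EEF2K, the kinase that slows elongation by phosphorylating eEF2, was lower in DU145 with miR-224 (-0.50, adjusted p = 0.00788 by limma) and with miR-452 (-0.49, adjusted p = 0.00814) than in untransfected cells, where the scrambled mimic gave -0.45 (adjusted p = 0.0411). The microRNA calls were lost without either untransfected array (adjusted p from 0.0678 to 0.0706), and the miR-224 call also without miR-224 array a (0.0514).

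Among the initiation helpers, DENR, a partner of MCTS1 in recycling and reinitiation, gave -0.90 with miR-224 over untransfected cells in DU145 (adjusted p = 0.00193 by limma), and the scrambled mimic gave -0.64 (adjusted p = 0.0288). LARP4, which binds poly(A) tails, gave -0.78 with miR-452 over untransfected cells in PC3 (adjusted p = 0.000314 by limma), and the scrambled mimic gave -0.40 (adjusted p = 0.0174). Both microRNA calls held whichever array was left out.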
